A study of Homo sapiens with 10 samples.

Results

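Metallothioneins were followed across U937 cells whose IgG receptors had been cross-linked. The genes considered were MT1E, MT1F, MT1G, MT1H, MT1X, MT2A and MTF1, and every probe set that the array annotation gave to one of them was kept, including any shared between paralogs. This gave 6 probe sets of the 8746 that were not array controls, for 5 of the 7 genes: 1 each for MT2A, MT1H, MT1G and MTF1 and 2 for MT1X. None of the 6 carried several gene symbols, and no probe set was named for MT1E or MT1F in the annotation used here. All 6 passed the filter on dim signal and were among the 7708 probe sets tested.

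U937 is an established human monocytic line, and all cells in the series had been differentiated with interferon gamma. The 10 arrays formed 5 groups of 2: CD64 cross-linking for 6 h, CD64 cross-linking for 2 h, CD32 cross-linking for 6 h, CD32 cross-linking for 2 h, and control cells for which the labels list interferon gamma and no cross-linking. CD64 is the IgG receptor of high affinity, and CD32 is one of low affinity. The labels give the control no time, and they do not say how the receptors were cross-linked or whether the 2 arrays of a group came from separate cultures, so the p-values reflect the spread among these arrays, which may be technical. The source name of 1 CD32 2 h array reads otherwise, and its title and description were followed.

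Metallothioneins are small, cysteine-rich proteins that bind zinc, copper and cadmium in the cytosol. Their genes are switched on by metals, oxidants, glucocorticoids and inflammatory signals, and the zinc-sensing transcription factor MTF1 drives them through short DNA motifs called metal response elements. In macrophages the family is known for buffering zinc during activation and infection. The human MT1 and MT2 genes lie beside each other on chromosome 16, and MTF1 lies on chromosome 1.

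The promoters of the 3 genes with bright probe sets carry letters of the motif that MTF1 binds, and they are shown as background. Whether the motif has a part in the signal changes below was not tested. Sequences are from RefSeq on GRCh38.p14, cover 250 bases before to 50 after the gene start, run 5′ to 3′ on the plus strand, and have in capitals each match, on either strand, to the metal response element letters TGCACNC or TGCGCNC.
MT2A, chr16:56608334-56608633: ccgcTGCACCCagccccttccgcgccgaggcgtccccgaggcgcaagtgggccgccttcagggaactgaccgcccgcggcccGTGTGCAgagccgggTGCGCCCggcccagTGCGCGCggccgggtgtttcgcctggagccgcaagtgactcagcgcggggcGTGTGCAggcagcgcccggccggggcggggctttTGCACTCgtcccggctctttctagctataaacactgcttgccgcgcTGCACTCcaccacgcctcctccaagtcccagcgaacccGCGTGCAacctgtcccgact
MT1H, chr16:56669564-56669863: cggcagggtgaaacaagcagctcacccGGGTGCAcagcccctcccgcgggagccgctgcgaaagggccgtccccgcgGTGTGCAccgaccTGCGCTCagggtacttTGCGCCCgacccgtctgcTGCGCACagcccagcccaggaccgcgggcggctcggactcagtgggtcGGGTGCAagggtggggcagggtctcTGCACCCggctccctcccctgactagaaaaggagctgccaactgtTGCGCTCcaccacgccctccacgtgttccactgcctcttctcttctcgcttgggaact
MT1X, chr16:56682220-56682519: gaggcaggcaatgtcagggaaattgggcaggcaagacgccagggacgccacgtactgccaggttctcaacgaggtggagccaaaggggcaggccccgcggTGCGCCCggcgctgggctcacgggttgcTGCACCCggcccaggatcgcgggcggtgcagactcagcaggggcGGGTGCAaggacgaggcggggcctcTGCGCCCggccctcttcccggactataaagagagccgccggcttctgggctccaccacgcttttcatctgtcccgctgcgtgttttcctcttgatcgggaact

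The MT2A promoter held 8 matches, 5 of them on the gene's own strand. MT1H likewise held 8 matches, and MT1X held 4. Over the 35116 promoters of the same length in the table, 29.6% held at least 1 match, 0.601% at least 4 and 0.0199% at least 8. The antioxidant response element letters TGACNNNGC, searched on both strands, matched 1 time in MT2A, 1 time in MT1X and 0 times in MT1H, and 13.3% of all promoters held at least 1 match. No matches of the motifs overlapped. The MTF1 promoter held none of these letters. Of the 7 genes, 4 had a promoter in the table, and those of MT1E, MT1F and MT1G were not in it. A match describes the letters and is not a measured binding site.

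The signals are linear intensities that appear to have been scaled before deposit, and the level of one probe set is not set against that of another. On an array of this kind, a name ending in _x_at marks a probe set in which some probes also match other transcripts. All 4 bright metallothionein probe sets end in _x_at, so each can read several members of this closely similar family. Of the 2 probe sets that carry the symbol MT1X, 1 has a listed transcript accession that RefSeq assigns to MT1L, a transcribed pseudogene of the same cluster. It is therefore called the MT1X/MT1L probe set below, and the name MT1X is kept for the other one, whose accession is assigned to MT1X.

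All arrays shared a trimmed mean near 499, but other measures moved with the groups. The mean of the highest signal per array was 15202 in CD64 6 h, 30354 in CD64 2 h, 37486 in CD32 6 h, 27526 in CD32 2 h and 28012 in control. The mean log2 signal of 9 spiked-in control probe sets was 9.03 in CD64 6 h, 10.55 in CD64 2 h, 12.11 in CD32 6 h, 11.03 in CD32 2 h and 10.38 in control. The actin 3′ to 5′ ratio, a measure of RNA quality, was 1.12 in CD64 6 h, 1.81 in CD64 2 h, 1.99 in CD32 6 h, 1.56 in CD32 2 h and 1.30 in control. These groups and their labelling or hybridisation cannot be told apart, and the part of these measures in the results below was not tested. Of 9 monocyte markers on the array 7 were above the floor of 37.5 on all 10 arrays, with a summed signal of 5874 to 11092. CD14 passed the floor on only 3 arrays and MPO on only 2. The summed signal was 203.9 to 365 over 6 T cell markers, 214.5 to 546.6 over 4 B cell markers and 196.7 to 449.8 over 6 epithelial and fibroblast markers. Of these, 1 T cell, 2 B cell and 1 epithelial or fibroblast marker passed the floor on all 10 arrays. The sums cover different probe sets and are not set against each other.

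At 2 h of CD64 cross-linking, the MT2A, MT1H, MT1X and MT1X/MT1L probe sets were higher than in control, by 1.44-fold to 1.64-fold. By 6 h of CD64 cross-linking none of them was called against control with the values as deposited, but MT2A and MT1X were called higher after quantile or cyclic loess normalization. In CD32 cross-linked cells none was called higher at either time as deposited.

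MT2A encodes the most widely expressed human metallothionein. Its signal was 9475 and 10399 in CD64 6 h, 12911 and 16144 in CD64 2 h, 12326 and 11891 in CD32 6 h, 10642 and 11200 in CD32 2 h, and 9967 and 10072 in control. Both CD64 2 h arrays lay above the other 8, and the CD64 6 h arrays lay on either side of control. The CD32 6 h and CD32 2 h arrays lay above control, but neither group was called against it as deposited. Ordered by mean, CD64 2 h was followed by CD32 6 h, CD32 2 h, control and CD64 6 h, of which only control and CD64 6 h overlapped as neighbours. With 2 arrays per group a lack of overlap is frequent, as on 49% of all probe sets between CD64 6 h and CD64 2 h. The CD64 2 h mean was 14527 ± 2286 and the control mean 10020 ± 74.0 (SD, n = 2 each), a log2 change of 0.53 ± 0.115 (SE) with an adjusted p of 0.0105 by limma.

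MT1H, an MT1 isoform gene of the same cluster, had a signal of 4161 and 4097 in CD64 6 h, 5948 and 7189 in CD64 2 h, 5232 and 4434 in CD32 6 h, 4330 and 4327 in CD32 2 h, and 4043 and 3948 in control. Again both CD64 2 h arrays lay above all others, and the control arrays were the 2 lowest. The order of the means was CD64 2 h, CD32 6 h, CD32 2 h, CD64 6 h and control, and only CD64 2 h was called against control. Means were 6569 ± 877 in CD64 2 h and 3995 ± 66.8 in control (SD, n = 2 each), and the log2 change was 0.71 ± 0.109 (SE, limma adjusted p = 0.00145).

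MT1X, another MT1 isoform gene, had a signal of 6262 and 7042 in CD64 6 h, 9228 and 9655 in CD64 2 h, 6149 and 5643 in CD32 6 h, 5484 and 5378 in CD32 2 h, and 5565 and 6652 in control. The CD64 2 h arrays stood apart from the other 8, while the CD64 6 h and CD32 6 h arrays overlapped control. Means ran from CD64 2 h through CD64 6 h, control and CD32 6 h to CD32 2 h, and only CD64 2 h was called against control as deposited. The CD64 2 h mean of 9441 ± 302 and the control mean of 6108 ± 768 (SD, n = 2 each) gave a log2 change of 0.63 ± 0.107 (SE, limma adjusted p = 0.00256).

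On the MT1X/MT1L probe set the signal was 5113 and 5121 in CD64 6 h, 8113 and 8581 in CD64 2 h, 3630 and 3968 in CD32 6 h, 3987 and 3508 in CD32 2 h, and 5211 and 4979 in control. Here the arrays formed 3 levels, with CD64 2 h highest, CD64 6 h and control overlapping in the middle, and the CD32 arrays of both times overlapping at the bottom. The CD64 2 h mean was 8347 ± 331 and the control mean 5095 ± 164 (SD, n = 2 each), a log2 change of 0.71 ± 0.0924 (SE, limma adjusted p = 0.00056).

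**Figure D1:**
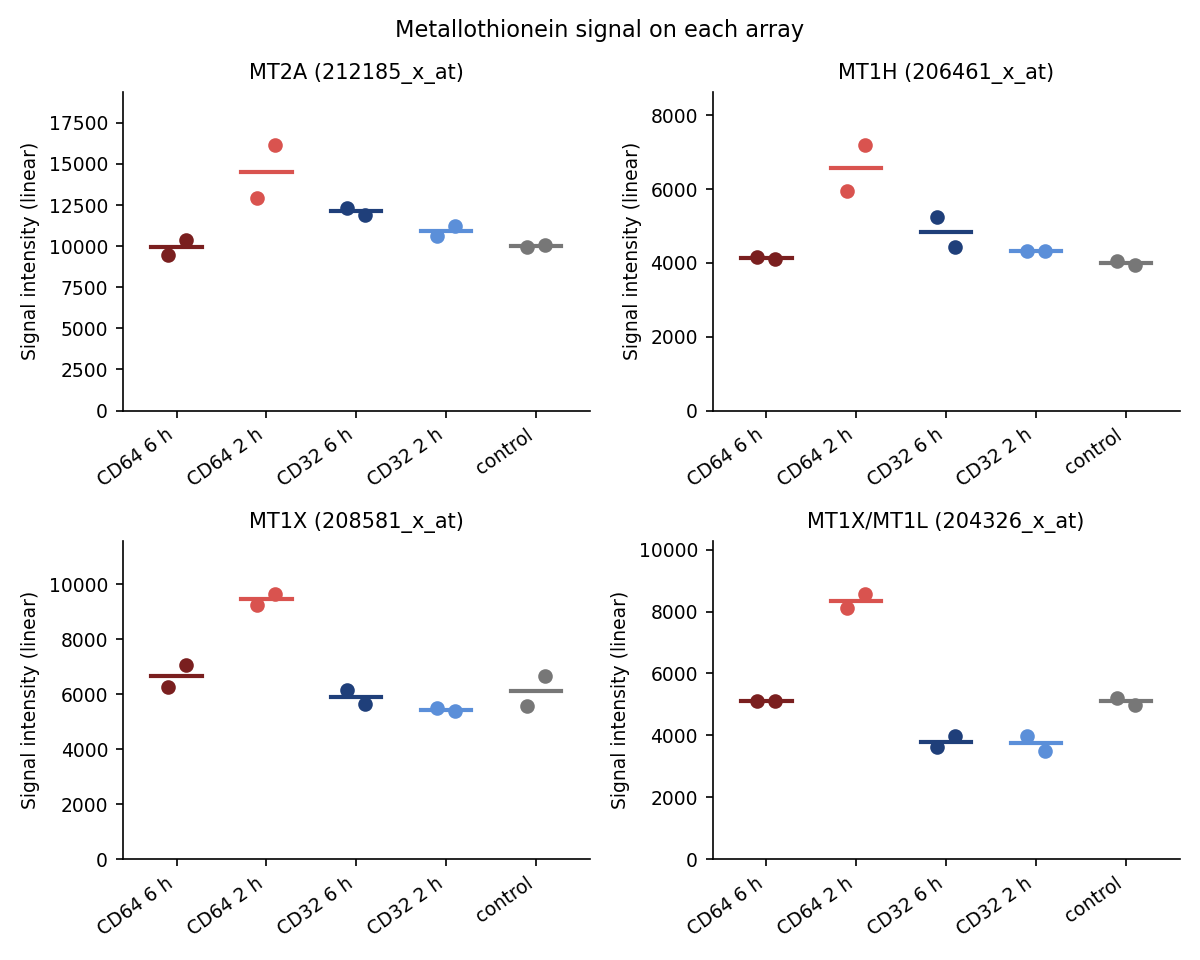
Linear signal intensity (vertical axes, from 0) of 4 metallothionein probe sets in the 5 groups; points are single arrays and bars the mean of 2. On each panel both CD64 2 h arrays lie above the other 8 arrays, and on MT1X/MT1L the CD32 arrays lie below control.

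MT1G, a further MT1 isoform gene, is read by the only metallothionein probe set that does not end in _x_at, and it was dim. Its signal was 19.8 and 32.8 in CD64 6 h, 6 and 22 in CD64 2 h, 8.3 and 44.9 in CD32 6 h, 11.2 and 4.1 in CD32 2 h, and 46.7 and 38.5 in control. It lay above the floor on 3 arrays, both controls and 1 CD32 6 h array, and all lower values were set to the floor before the test. The limma adjusted p was 0.678 or more in all 9 comparisons, and a difference at this probe set was not detectable at this signal.

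Of the 5 metallothionein probe sets, 4 were called higher at CD64 2 h against control (limma adjusted p under 0.05), where 7.64% of all probe sets tested were called higher. The median log2 change of the 5 was 0.63, beside -0.13 over all 7708. Of all probe sets tested, 5.38% likewise had both CD64 2 h arrays above the other 8. The probe sets can read each other's transcripts and are not independent measurements. For MT2A the call was lost without control array 1 (adjusted p = 0.0682), control array 2 (0.0531) or CD64 2 h array 2 (0.0783), without the variance trend (0.0731) and with only the groups compared in the fit (0.0502). Its adjusted p ran from 0.00672 to 0.0783 over 12 alternative settings, whereas the highest was 0.0316 for MT1H, 0.0412 for MT1X and 0.0226 for MT1X/MT1L.

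At CD64 6 h against control, 0 of the 5 were called in either direction, beside 20.6% of all probe sets, and 0 had an unadjusted limma p under 0.05. The log2 change was -0.01 for MT2A, 0.05 for MT1H, 0.13 for MT1X and 0.01 for MT1X/MT1L, and the median of the 5 was 0.01 beside -0.04 over all probe sets. This result depended on the scaling. With quantile normalization MT2A was higher at CD64 6 h by 0.55 (limma adjusted p = 0.00103) and MT1X by 0.45 (0.00532), and with cyclic loess, chosen after seeing the data, by 0.31 (0.0359) and 0.35 (0.0115). At CD64 2 h quantile normalization gave changes of 0.39 for MT2A, 0.62 for MT1H, 0.54 for MT1X and 0.62 for MT1X/MT1L, and all 4 kept their calls with both scalings.

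**Figure D2:**
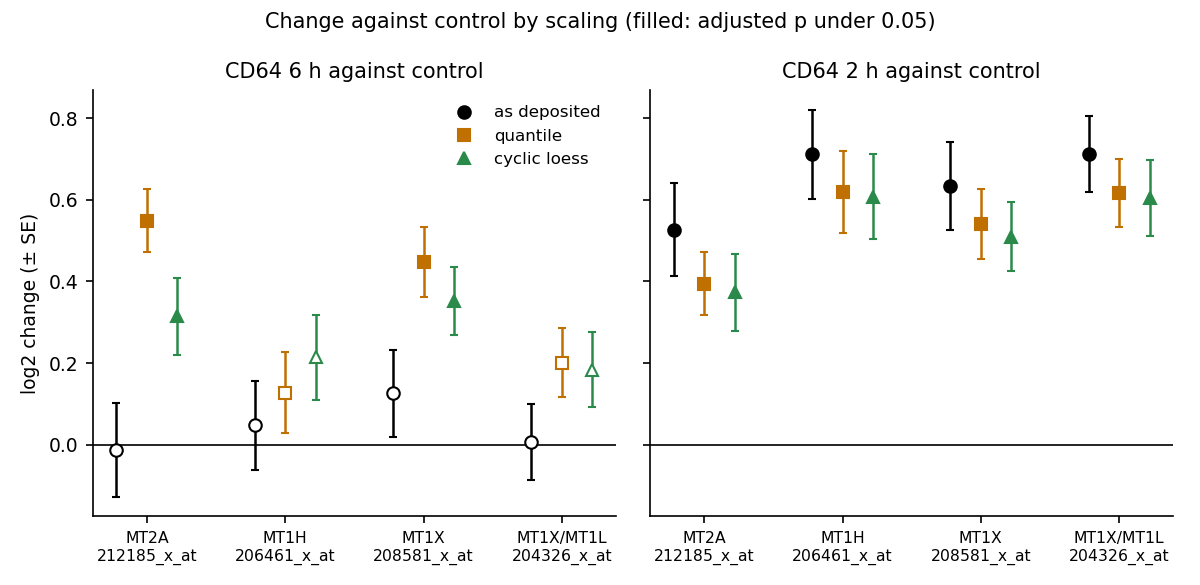
Log2 change against control (vertical axis, ± SE) of 4 metallothionein probe sets at CD64 6 h and CD64 2 h under 3 scalings; filled symbols have a limma adjusted p under 0.05. All 4 stay called at 2 h, whereas at 6 h MT2A and MT1X are called only after quantile or cyclic loess normalization.

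Under CD32 cross-linking, the MT1X/MT1L probe set was lower than control at both times and no other metallothionein probe set was called. The signals of each array are those given above, with all 4 CD32 arrays of MT1X/MT1L below both control arrays. At CD32 6 h its mean was 3799 ± 239 against 5095 ± 164 in control (SD, n = 2 each), 1.34-fold lower (log2 change -0.42, limma adjusted p = 0.00791). At CD32 2 h its mean was 3748 ± 339 (SD, n = 2), 1.36-fold lower than control (log2 change -0.45 ± 0.0924 SE, limma adjusted p = 0.00782). This was 1 of 5 called lower at each time, beside 10.3% of all probe sets called lower at CD32 6 h and 6.6% at CD32 2 h. MT1X itself had log2 changes of -0.05 at CD32 6 h (limma adjusted p = 0.821) and -0.16 at CD32 2 h (0.385), so the readings annotated to MT1X differ in call.

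MT2A and MT1H were not called under CD32: both had a log2 change of 0.27 at CD32 6 h (limma adjusted p = 0.128 for MT2A and 0.114 for MT1H) and of 0.12 at CD32 2 h (0.565 for MT2A and 0.572 for MT1H). With quantile normalization MT2A was called at CD32 2 h, at 0.26 (adjusted p = 0.0484). The median of the 5 was -0.05 at CD32 6 h and -0.16 at CD32 2 h, beside -0.08 and -0.03 over all probe sets. All 4 comparisons with control share its 2 arrays. The call for MT1X/MT1L at CD32 6 h was lost without control array 1 (adjusted p = 0.0546) or CD32 6 h array 1 (0.0724), and at CD32 2 h without control array 1 (0.0543) or CD32 2 h array 2 (0.0784). Over the 12 alternative settings its adjusted p ran from 0.00314 to 0.0778 at CD32 6 h and from 0.00491 to 0.0824 at CD32 2 h.

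**Figure D3:**
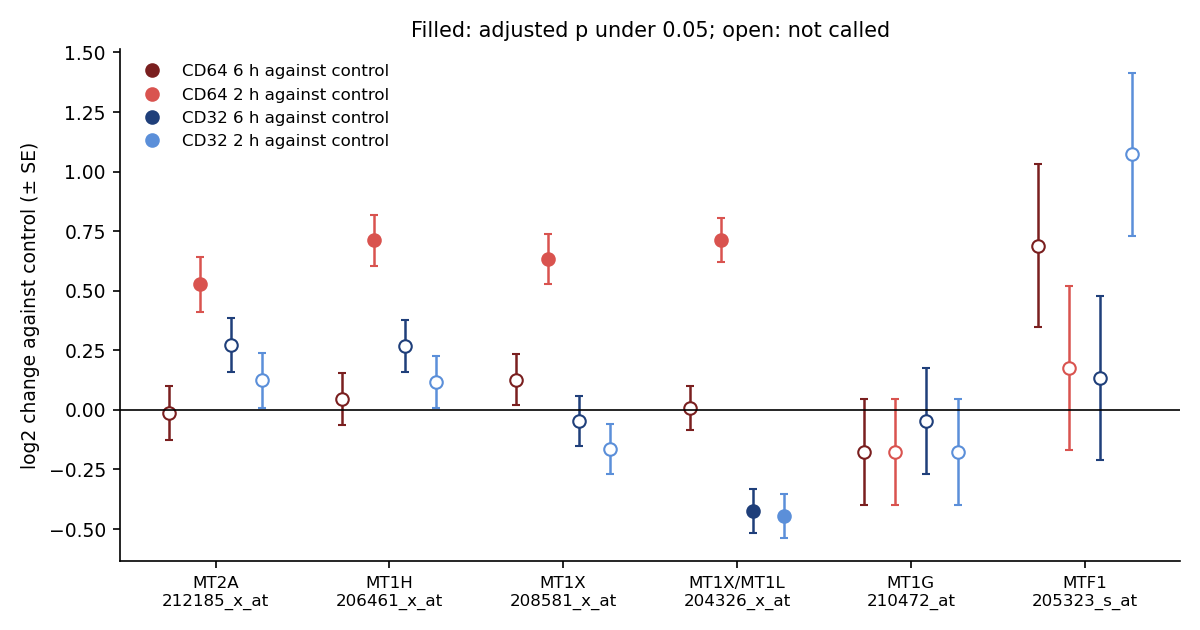
Log2 change against control (vertical axis, ± SE from limma) of the 6 probe sets in the 4 cross-linked groups, with 2 arrays per group; filled points have an adjusted p under 0.05. The filled points are 4 metallothionein probe sets above 0 at CD64 2 h and MT1X/MT1L below 0 at both CD32 times.

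Set directly against CD32 at 2 h, CD64 cross-linking gave higher signal on the same 4 metallothionein probe sets. MT1X/MT1L was 2.23-fold higher in CD64 2 h (log2 difference 1.16, limma adjusted p = 4.38e-05), and MT1X 1.74-fold higher (0.80, adjusted p = 0.000731). MT1H was 1.51-fold higher (0.60, limma adjusted p = 0.00386) and MT2A 1.32-fold higher (0.40, adjusted p = 0.0352). The count of 4 of 5 stands beside 6.86% of all probe sets called higher, and the median difference of the 5 was 0.60 beside -0.11 over all. MT2A lost its call without CD32 2 h array 1 (adjusted p = 0.184), CD32 2 h array 2 (0.132) or CD64 2 h array 2 (0.237) and with quantile normalization (log2 difference 0.13), while MT1H, MT1X and MT1X/MT1L kept theirs in each of these.

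At 6 h MT1X/MT1L was the only metallothionein probe set called between the receptors with the values as deposited, and others were called after rescaling. It was 1.35-fold higher in CD64 6 h than in CD32 6 h (log2 difference 0.43, limma adjusted p = 0.00868). That is 1 of 5, beside 9.81% of all probe sets called higher. MT2A had a log2 difference of -0.29 (limma adjusted p = 0.120), MT1H of -0.22 (0.213) and MT1X of 0.17 (0.340). The median of the 5 was -0.13, beside 0.05 over all. That median is the value of the dim MT1G probe set, set by the floor on most arrays, and describes none of the bright probe sets. For MT2A the direction turned with quantile normalization, to 0.40 (adjusted p = 0.00849), and MT1X was called with quantile normalization (0.49, limma adjusted p = 0.00533) and with cyclic loess (0.48, 0.0028). The call for MT1X/MT1L was lost without CD64 6 h array 1 (0.0557), CD64 6 h array 2 (0.0551) or CD32 6 h array 1 (0.0787).

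Between the times of CD64 cross-linking, the 4 bright metallothionein probe sets were lower at 6 h than at 2 h. MT1X/MT1L was 1.63-fold lower (log2 change -0.71, limma adjusted p = 0.00078) and MT1X 1.42-fold lower (-0.51, adjusted p = 0.00973). MT1H was 1.58-fold lower (-0.66, limma adjusted p = 0.00253) and MT2A 1.45-fold lower (-0.54, adjusted p = 0.0102). No array of CD64 6 h reached the lower CD64 2 h array on any of these 4, and 49% of all probe sets likewise showed no overlap between these groups. The count of 4 of 5 called lower stands beside 6.25% of all probe sets, and the median of the 5 was -0.54 beside 0.09 over all. MT1H and MT1X/MT1L stayed called with quantile normalization (-0.49 and -0.42), whereas MT1X fell to a change of -0.09 and MT2A turned to 0.15, neither called. Without CD64 2 h array 2 or CD64 6 h array 1 the calls of MT2A (adjusted p 0.0785 or 0.0902) and of MT1X (0.0725 or 0.0947) were lost.

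Between the times of CD32 cross-linking, 0 of the 5 were called at 6 h against 2 h, beside 4.46% of all probe sets, and 0 had an unadjusted limma p under 0.05. Their log2 changes ran between 0.02 and 0.15, with a median of 0.13 beside -0.05 over all probe sets. That median is the value of the dim MT1G probe set, whose means in both groups lay under the floor.

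The change between the times was also tested for a difference between the receptors, as the CD64 change minus the CD32 change. It was -0.82 ± 0.154 (SE) on the log2 scale for MT1H (limma adjusted p = 0.00696) and -0.73 ± 0.131 for MT1X/MT1L (adjusted p = 0.0056). It was -0.69 ± 0.162 for MT2A (limma adjusted p = 0.0194) and -0.62 ± 0.151 for MT1X (adjusted p = 0.0221). These are 4 of 5 called lower, beside 4.75% of all probe sets, and their median was -0.69 beside 0.16 over all. With quantile normalization 1 of the 5 was called and MT2A turned to 0.27, with cyclic loess 0 were called, and without the trend of variance on signal 0 were called.

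MTF1, the transcription factor that binds metal response elements, did not follow the metallothioneins. Its signal was 483.9 and 383.6 in CD64 6 h, 396 and 230 in CD64 2 h, 293.1 and 293.2 in CD32 6 h, 526.6 and 599 in CD32 2 h, and 391.3 and 182.3 in control. The CD32 2 h arrays were the 2 highest, and the control arrays lay so far apart that their range took in both CD32 6 h arrays and 1 array each of CD64 6 h and CD64 2 h. In the order of means CD32 2 h came first, then CD64 6 h, CD64 2 h, CD32 6 h and control, and all neighbours but the first pair overlapped.

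MTF1 averaged 563 ± 51.2 in CD32 2 h and 287 ± 148 in control (SD, n = 2 each), 2.10-fold apart, with a log2 change of 1.07 ± 0.343 (SE) and a limma adjusted p of 0.0604. At CD64 6 h its log2 change was 0.69 (limma adjusted p = 0.211), at CD64 2 h 0.18 (0.817) and at CD32 6 h 0.13 (0.846). It was called in 0 of the 9 comparisons, and 4 had an unadjusted limma p under 0.05. Its 2 control arrays differed by 1.10 on the log2 scale, against a median of 0.283 over all probe sets in that pair. Its change rested on which control array was kept. Without control array 1 it was called at CD32 2 h (1.62, limma adjusted p = 0.0205) and at CD64 6 h (1.24, 0.0384), and without control array 2 it was 0.52 at CD32 2 h (0.336) and 0.14 at CD64 6 h (0.824). The CD32 2 h change was also called with cyclic loess (adjusted p = 0.0397), and over the 12 alternative settings its adjusted p ran from 0.0205 to 0.336 at CD32 2 h and from 0.0384 to 0.824 at CD64 6 h.

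**Figure D4:**
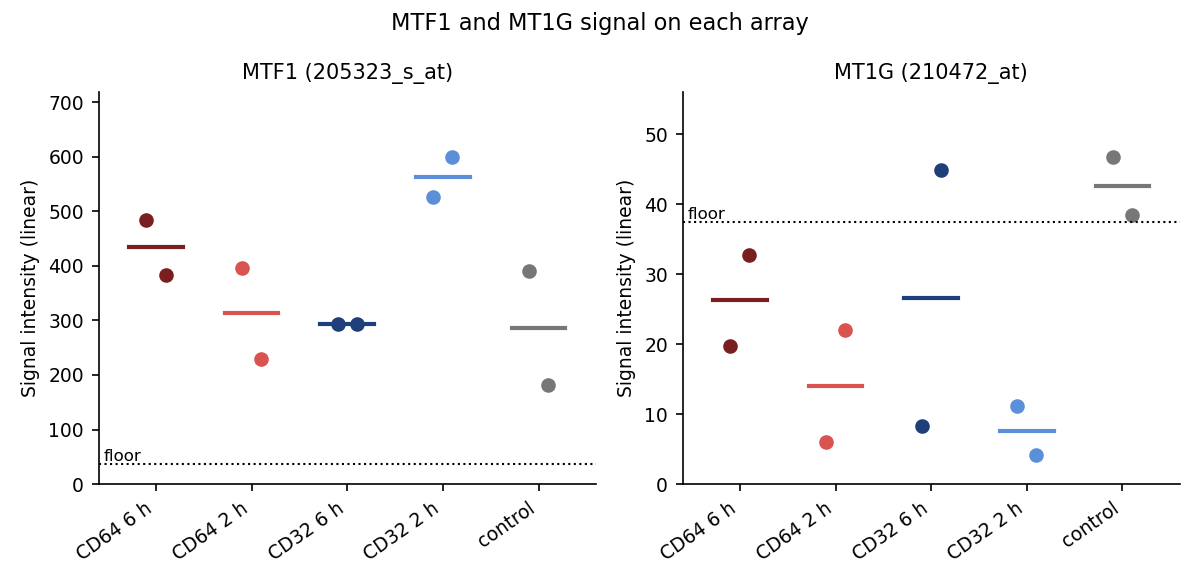
Linear signal intensity (vertical axes, from 0) of MTF1 and MT1G in the 5 groups; points are single arrays, bars the mean of 2, and the dotted line the floor of 37.5 used in the tests. MTF1 was highest on both CD32 2 h arrays, at 526.6 and 599, and MT1G passed the floor on 3 arrays.

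A list of 7 other metallothionein genes and pseudogenes included MT1L, whose transcript is the one listed for the MT1X/MT1L probe set above. By symbol, only MT3 of these 7, the form best known from brain, had a probe set in the annotation used. Its signal was 165.7 and 79.5 in CD64 6 h, 146.9 and 132.8 in CD64 2 h, 138.6 and 62.2 in CD32 6 h, 93.5 and 144.2 in CD32 2 h, and 212.1 and 93.5 in control. The array ranges of all 5 groups overlapped, and MT3 was called in none of the comparisons with control (0 with an unadjusted limma p under 0.05).

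Genes that metals and oxidants are known to switch on beside metallothioneins were followed as a list of 16, of which 12 were tested. At CD64 6 h 5 were higher and 1 lower than control, at CD64 2 h 8 higher and 0 lower, at CD32 6 h 4 higher and 1 lower, and at CD32 2 h 5 higher and 1 lower. Over all probe sets tested, 10.7% were called higher and 9.94% lower at CD64 6 h, 7.64% and 8.24% at CD64 2 h, 9.63% and 10.3% at CD32 6 h, and 8.86% and 6.6% at CD32 2 h. The median log2 change of the 12 was 0.54 at CD64 6 h, 0.77 at CD64 2 h, 0.15 at CD32 6 h and 0.45 at CD32 2 h.

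HMOX1 encodes heme oxygenase 1, which breaks down heme. Its signal was 475.7 and 624.5 in CD64 6 h, 464.6 and 632.7 in CD64 2 h, 214.5 and 234.4 in CD32 6 h, 315.4 and 298.1 in CD32 2 h, and 136.5 and 126.5 in control. All 8 cross-linked arrays lay above control, and the CD64 arrays lay above the CD32 arrays. It rose 4.15-fold at CD64 6 h (limma adjusted p = 9.5e-05) and 4.13-fold at CD64 2 h (adjusted p = 0.000223). It also rose 1.71-fold at CD32 6 h (limma adjusted p = 0.0336) and 2.33-fold at CD32 2 h (adjusted p = 0.00397). Unlike those of the 4 bright metallothionein probe sets, its arrays at the CD64 times overlapped.

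SLC7A11 encodes the cystine importer that feeds glutathione synthesis. Its signal was 916 and 856.9 in CD64 6 h, 446.2 and 510.2 in CD64 2 h, 540 and 498.2 in CD32 6 h, 785.3 and 831.3 in CD32 2 h, and 174.4 and 170.7 in control. All cross-linked arrays were above control, with log2 changes of 2.36 at CD64 6 h, 1.47 at CD64 2 h, 1.59 at CD32 6 h and 2.23 at CD32 2 h, each called by limma. SQSTM1, an autophagy receptor, was called higher in all 4 groups too, by 1.73 at CD64 6 h, 1.13 at CD64 2 h, 1.54 at CD32 6 h and 1.70 at CD32 2 h on the log2 scale. TXNRD1, a thioredoxin reductase, was called higher in all 4 groups as well, 1.63-fold at CD64 6 h, 1.92-fold at CD64 2 h, 1.97-fold at CD32 6 h and 1.60-fold at CD32 2 h. The gene called lower at CD64 6 h, CD32 6 h and CD32 2 h was DNAJB1, a heat shock co-chaperone, named here after its values were seen, with log2 changes of -1.38 at CD64 6 h, -0.66 at CD32 6 h and -0.61 at CD32 2 h.

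Zinc transporters move the metal that metallothioneins bind, and of the 21 in the list 7 were tested. At CD64 6 h 3 were called higher and 0 lower, at CD64 2 h 1 higher and 1 lower, at CD32 6 h 1 higher and 1 lower, and at CD32 2 h 0 in either direction, where 2 had an unadjusted limma p under 0.05. In these comparisons 7.64% to 10.7% of all probe sets tested were called higher and 6.6% to 10.3% lower. SLC39A6, a zinc importer, was higher by 0.62 at CD64 6 h, 0.40 at CD64 2 h and 0.50 at CD32 6 h on the log2 scale. SLC39A1 and SLC39A8, importers at the cell surface, were higher at CD64 6 h, by 0.76 (limma adjusted p = 0.0448) and 0.59 (0.0127).

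SLC39A7, which releases zinc from the endoplasmic reticulum and Golgi, had a signal of 278.4 and 243.3 in CD64 6 h, 132.6 and 72.7 in CD64 2 h, 324.1 and 367.6 in CD32 6 h, 205.8 and 195.6 in CD32 2 h, and 388.5 and 241.9 in control. The CD64 2 h arrays were the 2 lowest of the 10. It was 3.12-fold lower at CD64 2 h than in control (log2 change -1.64, limma adjusted p = 0.00762). SLC30A9, a zinc transporter of mitochondria, was lower at CD32 6 h by a log2 change of -0.92 (limma adjusted p = 0.0228).

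Among copper handling genes 10 of 14 were tested, and 2 were called higher and 1 lower at CD64 6 h, 2 and 0 at CD64 2 h, 1 and 0 at CD32 6 h, and 2 and 0 at CD32 2 h. These counts stand beside 7.64% to 10.7% of all probe sets called higher and 6.6% to 10.3% called lower, and several lie near those shares. SLC31A1, the high-affinity copper importer, had a signal of 769.5 and 582.1 in CD64 6 h, 247.3 and 205.8 in CD64 2 h, 293.6 and 344.4 in CD32 6 h, 367.4 and 428.1 in CD32 2 h, and 253.8 and 189.2 in control. The CD64 6 h arrays were the 2 highest, and those of CD64 2 h overlapped control. It rose 3.05-fold at CD64 6 h (limma adjusted p = 0.000511) and 1.81-fold at CD32 2 h (0.0279). SLC31A2, a related protein of intracellular membranes, was higher in all 4 groups, by log2 changes of 1.53 at CD64 6 h, 0.63 at CD64 2 h, 0.74 at CD32 6 h and 0.97 at CD32 2 h. SCO2, a chaperone that passes copper to cytochrome c oxidase, was higher at CD64 2 h by 0.52 (limma adjusted p = 0.0331), and SOD1, the copper and zinc superoxide dismutase, was lower at CD64 6 h by a log2 change of -0.43 (0.0134).

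Of 17 iron handling genes 11 were tested, with 2 called higher and 2 lower at CD64 6 h, 1 and 1 at CD64 2 h, 1 and 1 at CD32 6 h, and 1 and 2 at CD32 2 h. Most of these counts lie near the shares over all probe sets, 7.64% to 10.7% called higher and 6.6% to 10.3% lower. TFRC, the transferrin receptor, was higher in all 4 groups, by log2 changes of 1.34 at CD64 6 h, 0.65 at CD64 2 h, 1.36 at CD32 6 h and 0.87 at CD32 2 h. PCBP2, an iron chaperone and RNA-binding protein, was lower in all 4 groups, by log2 changes of -0.63 at CD64 6 h, -0.66 at CD64 2 h, -0.48 at CD32 6 h and -0.44 at CD32 2 h. Its relative PCBP1 was lower by log2 changes of -0.88 at CD64 6 h and -0.80 at CD32 2 h, and BLVRA, a biliverdin reductase, was higher at CD64 6 h by 0.93.

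S100A8, a subunit of the zinc-binding protein calprotectin, had a signal of 810.2 and 743.9 in CD64 6 h, 563.7 and 729.8 in CD64 2 h, 472.7 and 460.5 in CD32 6 h, 348 and 549.2 in CD32 2 h, and 228 and 208.3 in control. All cross-linked arrays lay above control, and the rise was 3.56-fold at CD64 6 h, 2.94-fold at CD64 2 h, 2.14-fold at CD32 6 h and 2.01-fold at CD32 2 h, each called by limma. It was the 1 calgranulin of 3 tested that was called in each group, beside 7.64% to 10.7% of all probe sets called higher.

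Glucocorticoid-induced genes, listed together with the gene of the glucocorticoid receptor, were followed because glucocorticoids also switch on MT2A. Of 11 in the list 9 were tested, with 1 called higher and 3 lower at CD64 6 h, 2 and 1 at CD64 2 h, 1 and 1 at CD32 6 h, and 1 and 3 at CD32 2 h. Over all probe sets tested, 7.64% to 10.7% were called higher and 6.6% to 10.3% lower in these comparisons. SGK1, a serum and glucocorticoid regulated kinase, was higher in all 4 groups, by log2 changes of 1.93 at CD64 6 h, 1.49 at CD64 2 h, 1.86 at CD32 6 h and 1.87 at CD32 2 h. GLUL, glutamine synthetase, was lower at CD64 6 h by a log2 change of -1.23 and at CD32 2 h by -0.84. DUSP1, a MAP kinase phosphatase, was lower in the same groups by log2 changes of -1.67 and -1.09. NR3C1, the glucocorticoid receptor itself, is part of the counts above. It was higher at CD64 2 h by 0.42 and lower under CD32, by log2 changes of -0.82 at CD32 6 h and -0.63 at CD32 2 h. ZBTB16, a transcriptional repressor, was lower under CD64, by log2 changes of -1.16 at CD64 6 h and -1.37 at CD64 2 h.

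**Figure D5:**
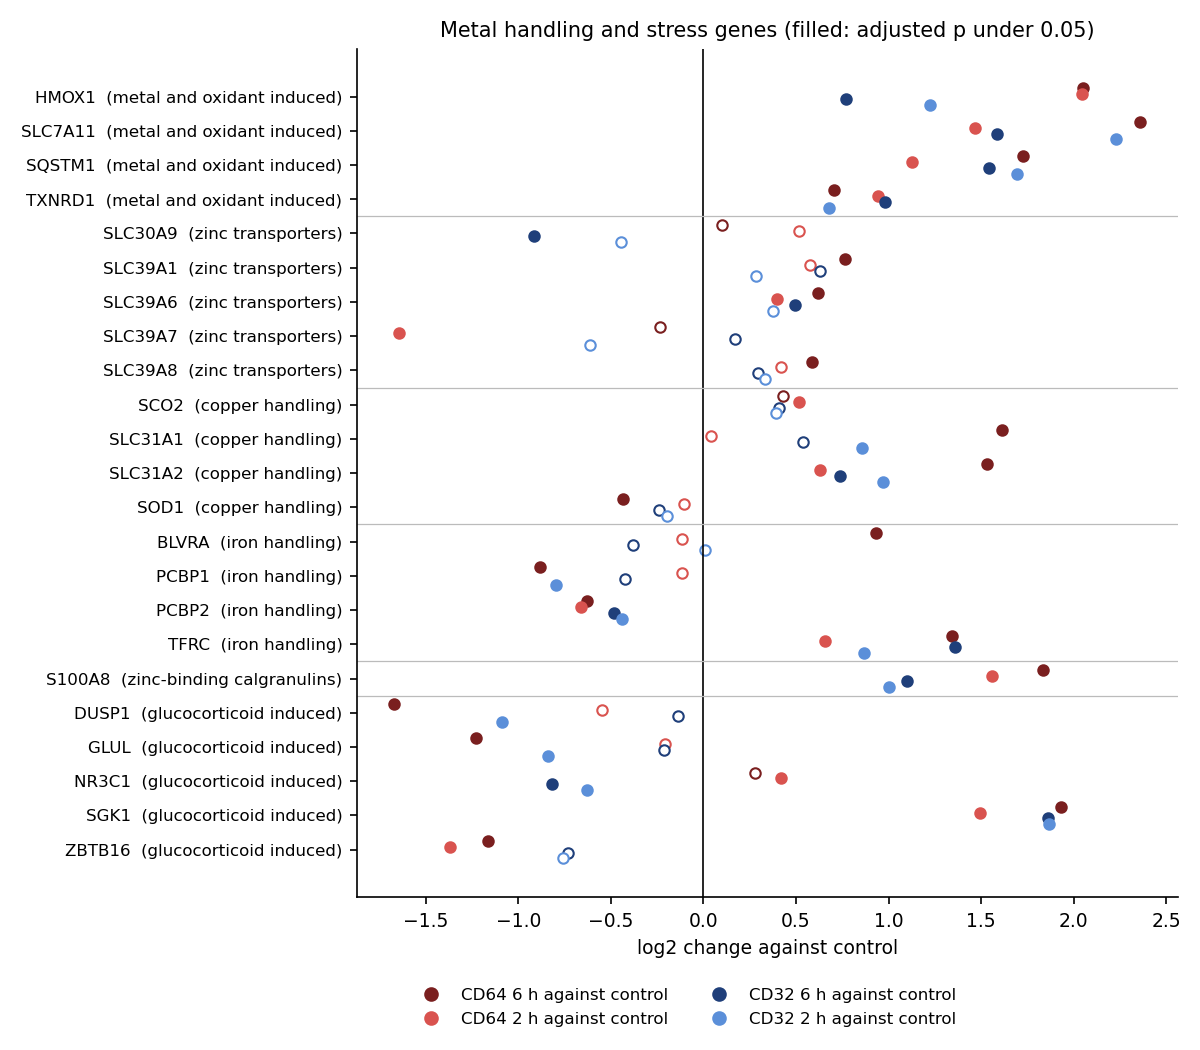
Log2 change against control (horizontal axis) of the named metal handling and stress genes (vertical axis, grouped by list) in the 4 cross-linked groups; filled points have a limma adjusted p under 0.05. HMOX1, SLC7A11, SQSTM1, TXNRD1, SLC31A2, TFRC, S100A8 and SGK1 lie above 0 and are called in every group, whereas SLC39A7 is called at CD64 2 h alone, at -1.64.

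Genes with the pattern most like that of the metallothioneins were ranked by Pearson correlation, over the 10 arrays, with the mean of the centred log2 values of the 5 metallothionein probe sets. The ranking covered 2109 probe sets with a range of group means over 1 on the log2 scale, and it is a description with no test, since all points share the same arrays and scaling. The highest were DPM1, a subunit of dolichol phosphate mannose synthase (0.925), HBB, beta globin (0.909), NCAPG, a condensin subunit (0.904), PPA2, a mitochondrial pyrophosphatase (0.899), HSPH1, a heat shock protein of the metal and oxidant induced list (0.888), and CHERP, a protein of the endoplasmic reticulum (0.884). The lowest were RCC1, which loads Ran with GTP at chromatin (-0.970), ICAM3, a leukocyte adhesion molecule (-0.955), and MAN2A1, a Golgi mannosidase (-0.946). The HBB probe set ends in _x_at, so its signal may come in part from other transcripts. Without the dim MT1G probe set the 6 highest were the same genes, and SERPINA1 took the third lowest place at -0.950.

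HSPH1, at rank 5 of the 6 highest, is given as an example of this pattern, which the 4 genes above it showed more closely. Its signal was 1530 and 1283 in CD64 6 h, 3063 and 2435 in CD64 2 h, 1216 and 1358 in CD32 6 h, 1042 and 1383 in CD32 2 h, and 1334 and 1469 in control. Both CD64 2 h arrays lay above the other 8, as on 5.38% of all probe sets tested, and those of the remaining groups overlapped. In bulk RNA of this kind, a lower signal from a smaller share of cells with a transcript and one from less of it per cell cannot be told apart.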

How the data were processed

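Total RNA of 10 U937 samples had been hybridised to 1-colour oligonucleotide arrays. The deposited table gave a linear signal intensity on each array for 8793 probe sets, of which 47 were array controls. Trimmed means computed here from these values were alike, 499.4 to 499.9 on all arrays, so they appear to have been scaled before deposit. Neither the scaling nor the software is given in the sources used here. Gene symbols came from GEO's platform annotation, which can be old. Values were used as deposited, set to a floor of 37.5 (percentile 25 of all values) and taken to log2. The 7708 probe sets that passed the floor on 2 or more arrays were tested with limma 3.58.1 in R 4.3.3, by lmFit with 1 term per group and eBayes with a variance trend. This left 5 residual and 5.65 prior degrees of freedom and a median SD of 0.286 (log2). All tests were two-sided, p-values were adjusted by Benjamini and Hochberg over all probe sets tested, and a call is an adjusted p under 0.05. Folds are from the log2 differences. The number of arrays, 2 per group, limits the precision.

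The members and gene lists were chosen with earlier results of these data known. From each list, up to 3 called genes per comparison with control were named by size of change, and for likeness the 6 highest and 3 lowest correlations. Alternatives covered floor, filter, normalization, variance trend, arrays in the fit, a replicate term, each array left out and probe sets ending in _x_at. The script was tested on simulated data. Promoters came from RefSeq on GRCh38.p14. Figures were drawn with matplotlib 3.10.9.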

Additional observations from a re-analysis of the deposited data

Results flagged for a closer look

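The change between 2 h and 6 h differed between the receptors for 4 metallothionein probe sets, by limma's test of that difference itself (CD64 change minus CD32 change, log2 scale). The values were -0.73 for MT1X/MT1L, -0.82 for MT1H, -0.62 for MT1X and -0.69 for MT2A. This difference depended on the processing: with quantile normalization MT1H alone was called and MT2A turned to 0.27, and with cyclic loess or without the variance trend 0 of the 4 were called.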

How the results depend on the processing

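Of 658 recomputed log2 changes, 583 kept their side of the threshold (26 uncalled changes turned their sign), 58 lost a call and 12 gained one. The other 5, all MT2A, turned their sign, and none was called in both directions. Calls were gained at CD64 6 h against control, at 0.55 with quantile normalization and 0.31 with cyclic loess (chosen after seeing the data). With quantile normalization a call was also gained for CD64 against CD32 at 6 h, at 0.40. Calls were lost with quantile normalization for CD64 6 h against 2 h, at 0.15, and for the receptor by time difference, at 0.27. Quantile normalization moved the median of all probe sets at CD64 2 h against control to 0, beside -0.13 as deposited. Counts of metallothionein probe sets called with quantile normalization were 2 for CD32 2 h against control, 2 for CD64 6 h against control, 3 for CD64 against CD32 at 6 h, 2 for CD64 6 h against 2 h and 1 for the receptor by time difference. With cyclic loess they were 2, 2, 2 and 0 for the last 4 of these. Without the variance trend they were 3 for CD64 2 h against control, 0 for CD32 against control at either time, 0 for CD64 against CD32 at 6 h, 2 for CD64 6 h against 2 h and 0 for the receptor by time difference, which had 2 with no filter on dim signal. Without the probe sets ending in _x_at, MT1G alone was left and every count was 0. Leaving out 1 array gave counts of 0 to 1 for each CD32 comparison with control and for CD64 against CD32 at 6 h, 3 to 4 for CD64 2 h against control and against CD32 2 h, 2 to 4 for CD64 6 h against 2 h and for the receptor by time difference, and 0 for CD64 6 h against control and CD32 6 h against 2 h. The cause of these changes was not tested. Residuals of same-numbered arrays of different groups had correlations of -0.141 to 0.285 (median 0.0309). These values do not settle whether the numbers pair the arrays, since some pairs of groups were correlated and others were not. The replicate block changed no count of metallothionein calls (4 at CD64 2 h against control) and brought a call for MTF1 at CD32 2 h (adjusted p = 0.0321) and for its receptor by time difference (0.0477). Over all probe sets, calls without the trend numbered 725 beside 1224 at CD64 2 h against control (767 when only the groups compared were fitted), 830 beside 1256 for CD64 against CD32 at 2 h, 54 beside 344 for CD32 6 h against 2 h, 579 beside 1065 for CD64 6 h against 2 h and 417 beside 884 for the receptor by time difference (565 with quantile normalization).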
